A study of Mus musculus with 2 samples.

Results

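Cytosolic ribosomal protein genes were described across the cell types and erythroid stages of mouse bone marrow progenitors after hypobaric hypoxia. They were chosen by symbol, as the Rps and Rpl genes followed by a digit together with Rplp0, Rplp1, Rplp2 and Rpsa, without pseudogene symbols and without the S6 kinases. The rule found 86 genes among the 24393 gene columns that both libraries share. Of these, 31 are proteins of the small subunit, 46 are proteins of the large subunit, and 9 are paralogs or other symbols caught by the rule. Rps19bp1, a nucleolar protein that binds Rps19 and no ribosomal protein itself, is among the 9.

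Magnetic beads removed mature lineage cells from the marrow of ICR mice aged 7 to 8 weeks, and the remaining single cells were captured on the BD Rhapsody platform. Mice of the hypoxia group were housed for 13 days at 52.93 kPa in a low-pressure chamber, given in the labels as 5000 m, with 19.5% oxygen. The control group was killed on arrival and not kept in parallel, so time, age and handling cannot be told apart from the chamber. Each group is 1 library, and the sources used here do not say how many mice contributed. With 1 library per group no test of hypoxia was possible, and every interval below is a 95% interval for counting error only.

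The ribosome is built from a small and a large subunit, each an RNA core dressed with proteins that are made in matched amounts. The mRNAs of these proteins begin with a 5′ terminal oligopyrimidine (TOP) tract, through which mTOR and the RNA-binding protein Larp1 adjust their translation to nutrient and oxygen supply. Erythroid progenitors are known to be sensitive to ribosome dosage: loss of function of RPS19, RPL5, RPL11 and others causes Diamond-Blackfan anaemia, a failure of red cell production.

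The hypoxia library kept 6276 of 6406 cells with a median of 21345 unique molecules (UMIs) per cell, and the control library kept 3914 of 3956 cells with 32166. The libraries share 23 of their cell index values. Cells were assigned to 15 gates by marker genes, and 87.6% of hypoxia cells and 83.1% of control cells fell into exactly 1 gate. In each gate with a marker list of its own, every listed marker was above 10 UMIs per 1000000 UMIs of the gate (CPM) in both libraries. Gate names stand for cells that resemble the named type by these markers. Depth per cell was lower in the hypoxia library in 14 of the 15 gates, the globin-high erythroblasts being the exception. Globin transcripts outside the erythroid gates were also higher there, at 0.0102% of UMIs in the stem gate against 0.000812% in the control library. Their part in the results below, and that of depth except where depth-matched values are given, was not tested.

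The start-site sequences of a few members show the pyrimidine runs near the annotated start of genes that results below turn on. Rplp2 and Rps26 are acidic stalk and small-subunit proteins with opposite ratios between the libraries, Rpl24 is a large-subunit protein at the higher end, and Rps27 and Rps27l are a paralog pair whose balance differed between cell types. Each runs from 40 bases before to 20 bases after the RefSeq start site on GRCm38.p6, 5′ to 3′, with capitals marking the longest run of C or T in the window from 20 bases before to 30 after it.
Rplp2 (chr7:141447611-141447670, plus strand): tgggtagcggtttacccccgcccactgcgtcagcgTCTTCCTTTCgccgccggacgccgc
Rps26 (chr10:128626487-128626546, minus strand): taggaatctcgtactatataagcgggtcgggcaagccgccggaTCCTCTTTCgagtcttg
Rpl24 (chr16:55966235-55966294, plus strand): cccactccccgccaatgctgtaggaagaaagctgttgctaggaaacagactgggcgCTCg
Rps27 (chr3:90213629-90213688, minus strand): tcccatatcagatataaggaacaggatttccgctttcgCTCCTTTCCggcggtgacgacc
Rps27l (chr9:66946046-66946105, plus strand): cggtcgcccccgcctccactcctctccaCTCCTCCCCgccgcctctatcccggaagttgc
Rplp2 has a run of 10 pyrimidines across the annotated start, and Rps27 has 9 across it. The run of 9 in Rps26 and that of only 3 in Rpl24 lie after the start. The run of 9 in Rps27l lies before it. Of the 86 members, 66 had a promoter entry, in 78 entries. A run of at least 8 pyrimidines on the sense strand, between 20 bases before and 30 after the start, was found in 44.9% of these 78 entries and in 18.95% of all 32851 promoters. A run is a description of the letters and not of a regulated tract.

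Ribosomal protein genes supplied 13.9% of all UMIs in the hypoxia library against 15.3% in the control library, a ratio of 0.906 (0.905 to 0.907). As summed UMIs the share was lower in the hypoxia library in each of the 15 gates, but the gap differed in size. In the globin-high erythroblasts it was small, with a ratio of 0.998 (0.991 to 1.006), and in the B lineage gate it rested on few cells. The median over cells was instead higher in the hypoxia library in those gates, at 12.1% against 8.18% and at 10.1% against 8.86%. In the megakaryocyte gate the medians were 12.25% and 12.24%. The ratio of summed shares was farthest below 1 in the basophil, eosinophil and monocytic gates.

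In stem and multipotent progenitors (marked by Hlf and Cd34), the share was 14.7% over 151 hypoxia cells and 16.0% over 119 control cells, a ratio of 0.920 (0.915 to 0.925). The middle 50% of cells ran from 13.8% to 15.9% in the hypoxia library, and those of the control library from 14.9% to 17.4%. These ranges overlapped in part, and the control median of 16.3% lay above the upper end of the hypoxia range. Lymphoid-primed progenitors, marked by Dntt, gave 14.5% and 16.1%, and megakaryocyte-erythroid progenitors gave 14.9% over 62 hypoxia cells and 16.6% over 158 control cells. Granulocyte progenitors, marked by Elane and Mpo, gave 13.7% and 15.2%, a ratio of 0.905 (0.904 to 0.907). Their shares were therefore close to those of the stem gate within each library.

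Monocytic and dendritic progenitors, marked by Irf8 with Ly6c2 or Csf1r, gave 11.7% over 450 hypoxia cells and 14.9% over 128 control cells. The ratio was 0.782 (0.779 to 0.785), the lowest after those of the basophil and eosinophil gates. The makeup of this gate also differed between the libraries. Ccr2, a chemokine receptor of maturing monocytes, stood at 952 CPM in the hypoxia library against 505 CPM in the control library, and Mpo, a granule enzyme of early myeloid progenitors, at 2029 CPM and 3187 CPM. The 4 macrophage markers summed to 1.8 CPM in the hypoxia library, with 1 of the 4 at 0, and to 86.8 CPM in the control library. The gap was present on both sides of a split by Ccr2 and of a split by Mpo, and was smaller there than in the whole gate. Cells below 5 Ccr2 UMIs per 10000 gave 13.4% (145 hypoxia cells) and 15.6% (82 control cells). Those at or above that level gave 10.7% (305 cells, 67.8% of the hypoxia gate) and 13.6% (46 cells, 35.9% of the control gate). Cells below 20 Mpo UMIs per 10000 gave 10.6% (311 hypoxia cells) and 13.1% (55 control cells), and those at or above it gave 13.2% (139 cells) and 15.9% (73 cells). Among cells of 10000 to 20000 UMIs the shares were 11.3% and 14.7%, and among cells of 20000 to 30000 UMIs they were 12.7% and 15.3%.

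The basophil and mast lineage, marked by Cpa3, Mcpt8 and Prss34, gave the lowest ratio. Its share was 8.62% over 565 hypoxia cells and 11.8% over 209 control cells, a ratio of 0.732 (0.728 to 0.735). Here too the gate's makeup differed, with Cpa3, a granule protease, at 7483 CPM in the hypoxia library against 4024 CPM in the control library. In cells below 200 UMIs of Prss34 plus Mcpt8 per 10000, basophil proteases that accumulate with maturation, the shares were 10.4% (143 cells) and 13.4% (61 cells). In cells at or above that level they were 8.28% (422 cells) and 11.3% (148 cells). Both sides thus showed the gap, and in both libraries the cells rich in Prss34 plus Mcpt8 had the lower share. Those cells made up 74.7% of the hypoxia gate and 70.8% of the control gate. The gate was not split by Cpa3, so the part of the Cpa3 difference in the gap was not tested. The eosinophil gate gave 12.4% and 15.9%, the latter over only 16 control cells.

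The neutrophil lineage, marked by S100a8 and S100a9, stood far below all other gates, at 2.72% over 118 hypoxia cells and 3.18% over 69 control cells. Relative to the granulocyte progenitors of the same library its share was 0.198 (0.194 to 0.202) in the hypoxia library against 0.209 (0.205 to 0.213) in the control library. Of its cells, 92.4% and 94.2% had a share under 5%. The neutrophil share was thus about as low in either library, and this fall between cell types was far larger than any gap between the libraries. T, NK and innate lymphoid cells gave 11.8% over 68 hypoxia cells and 13.9% over 48 control cells. The B lineage gate held 16 and 11 cells, with shares of 10.9% and 11.3%.

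**Figure D1:**
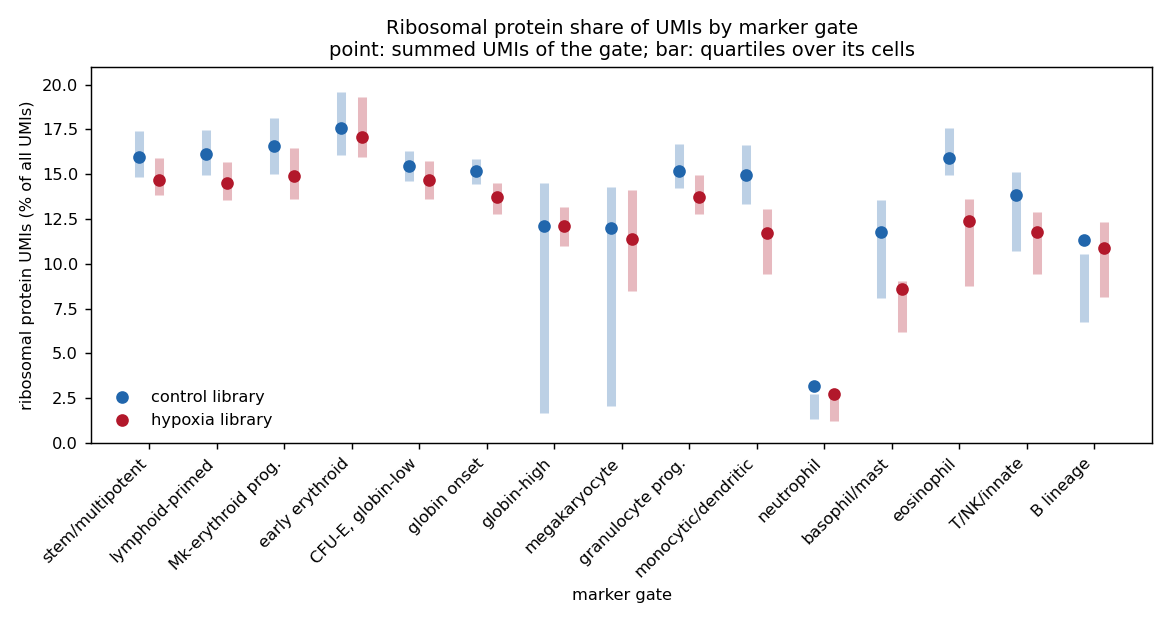
Ribosomal protein UMIs as a percentage of all UMIs (vertical axis) in each of the 15 marker gates (horizontal axis), with points for the summed UMIs of the hypoxia (red) and control (blue) libraries and bars for the quartiles over cells. The red point lies below the blue one in every gate, with a difference of -3.26 percentage points in the monocytic and dendritic gate and of -0.775 points in the globin-low CFU-E gate.

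Along the erythroid path the share rose and then fell. It was highest in early erythroid cells, which carry Gata1 and Gata2 with Car1, Klf1 or Ermap, at 17.1% over 94 hypoxia cells and 17.6% over 70 control cells. Against the stem gate of the same library the share was higher by 1.16-fold (1.16 to 1.17) in the hypoxia library, compared with 1.10-fold (1.10 to 1.11) in the control library. At the globin-low stage of erythroid colony-forming cells (CFU-E), after Gata2 is lost, the share was 14.7% over 1942 hypoxia cells and 15.5% over 1614 control cells, a ratio between libraries of 0.9498 (0.949 to 0.951). At globin onset it was 13.7% over 892 cells and 15.2% over 287 cells. The fall from CFU-E to globin onset was thus 0.935-fold in the hypoxia library against 0.982-fold in the control library.

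The depth gap was wide at the CFU-E stage, with medians of 29894 and 42919 UMIs per cell. Among CFU-E cells of 20000 to 40000 UMIs, a range chosen after seeing the data, the shares were 14.7% (1518 hypoxia cells) and 15.7% (564 control cells), a ratio of 0.939. Across the depth bins of this gate with at least 20 cells in each library, the ratio ran from 0.929 to 0.966. The lower share in the hypoxia library was therefore present at matched depth.

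Globin-high erythroblasts gave almost equal shares when their UMIs were summed, 12.1% over 225 hypoxia cells and 12.1% over 42 control cells. These sums hid a split among the control cells and a thin low tail among the hypoxia cells. In the control library, 18 of the 42 cells had a share under 5%, and in the hypoxia library 15 of 225 cells did. Only 1 cell in each library lay between 4% and 6%. The cells under 5% held 27.9% globin UMIs in the control library and 30.2% in the hypoxia library, with medians of 5280 and 4762 UMIs per cell. Their shares were 2.16% and 2.01%. Alas2, the first enzyme of erythroid haem synthesis, stood at 4622 and 4029 CPM in them, against 603 and 675 CPM in the other cells of the gate.

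Binned by globin level, the share fell most in the cells richest in globin. In the control library it was 15.5% in erythroid cells with under 2 globin UMIs per 10000 and 14.9% in those with 200 to 500, the latter only 16 cells. At 1000 or more, the share was 3.32% over 22 cells. In the hypoxia library the corresponding values were 14.9%, 12.6% over 169 cells and 5.21% over 26 cells. Globin mRNA itself enlarges the denominator, so the share was also taken without globin and mitochondrially encoded genes. It was then 16.7%, 16.2% and 4.602% in the control library and 16.1%, 13.8% and 6.78% in the hypoxia library. The drop in the most globin-rich cells was therefore present after globin was left out, while the decline before it was larger in the hypoxia library.

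From CFU-E cells to globin-high erythroblasts the share fell 0.824-fold (0.821 to 0.826) in the hypoxia library against 0.784-fold (0.778 to 0.789) in the control library. The control value rests on the makeup of its 42 cells. It was 0.471 with all gate thresholds doubled and 0.941 without the cells at 1000 or more globin UMIs per 10000, and the corresponding hypoxia values were 0.709 and 0.847.

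**Figure D2:**
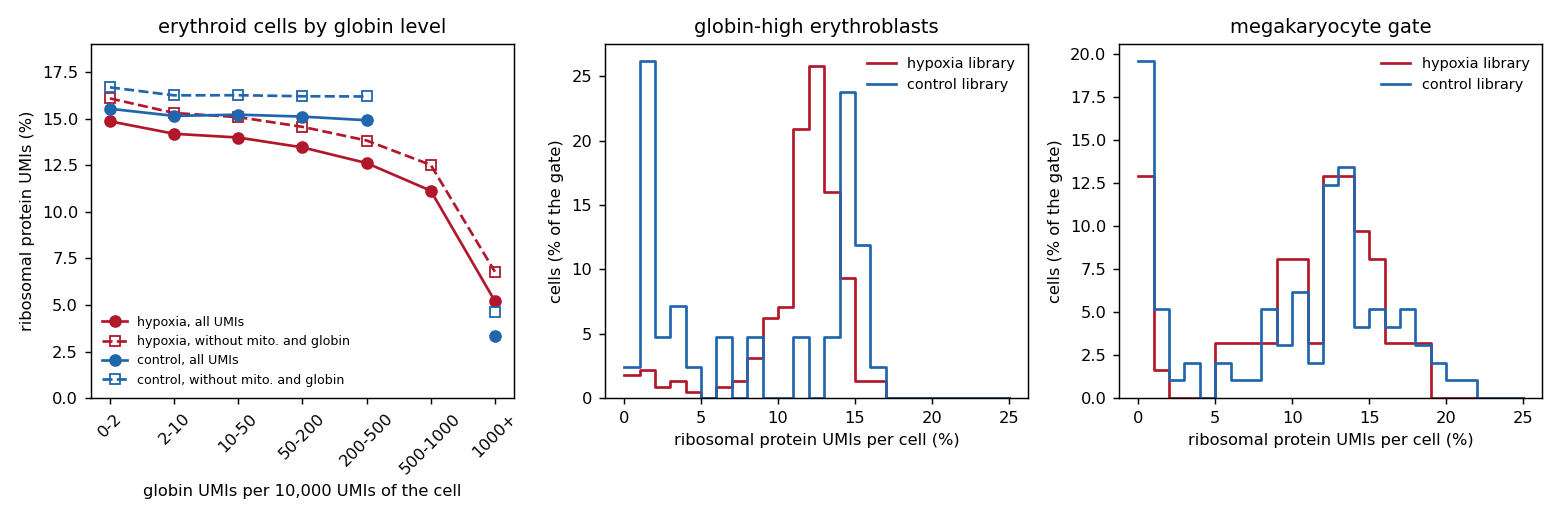
Left, ribosomal protein share of UMIs (percent) against globin UMIs per 10000 in erythroid cells of the CFU-E, globin-onset and globin-high gates, with solid lines over all UMIs, dashed lines without mitochondrially encoded and globin genes, and bins under 10 cells left out. Middle and right, the percentage of cells (vertical axis) by their share (horizontal axis) in the globin-high and megakaryocyte gates. A group of cells under 5% stands apart in the megakaryocyte gate of both libraries and in the globin-high gate of the control library. In the globin-high gate of the hypoxia library such cells form a thin tail.

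The megakaryocyte gate, marked by Pf4 and Itga2b, held a like split. Its summed shares were 11.4% over 62 hypoxia cells and 11.97% over 97 control cells. Under 5% lay 9 hypoxia cells and 27 control cells, and 2 cells in each library lay between 4% and 6%. In the control library the cells under 5% had a median of 999 genes against 5989 in the others. Ppbp, a chemokine stored in platelets, stood at 19809 CPM in them against 2941 CPM in the other control cells, and at 9290 against 5315 CPM in the hypoxia library. Platelets keep mRNA without a nucleus, and whether these barcodes are platelets or platelet-bearing fragments was not tested.

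Single members mostly moved together between the libraries, with a lower value in the hypoxia library. In the stem gate 81 of the 86 members had at least 50 UMIs over both libraries, and 63 of these had a ratio below 1. The log2 ratio of CPM, with 10 CPM added on both sides, had a median of -0.13 over the members and of 0.01 over all genes. At the CFU-E stage 59 of 83 members were below 1, with a median of -0.10 against 0.03. The monocytic and dendritic gate had 77 of 82 below 1 with a median of -0.35, and the basophil gate 80 of 82 with a median of -0.45.

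Few members passed a ratio of 1.5-fold. In the stem gate 2 were at least 1.5-fold lower in the hypoxia library, where 2.67% of all 8434 genes tested were, and 0 were higher, where 3.02% of genes were. In CFU-E cells 2 were lower, against 1.29% of 11350 genes, and 0 higher, against 2.2%. In the monocytic and dendritic gate 12 of 82 were lower, against 2.22% of genes. In the basophil gate 23 of 82 were lower, against 3.49% of genes, and 0 were higher in either gate, where 4.99% and 3.54% of genes were. With no replicate library, these counts describe the 2 libraries and not hypoxia.

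Most of the remaining gates had few calls among the members. Over all kept cells 0 members were higher and 3 of 84 lower, Rpl30 and Rps19bp1 among them, against 2.59% and 1.1% of genes. Lymphoid-primed progenitors had 0 higher and 3 lower, against 3.83% and 2.95%, and granulocyte progenitors 0 and 2, against 2.01% and 1.42%. Megakaryocytes had 0 higher and 1 lower, Rpl30, against 3.37% and 3.21%, and megakaryocyte-erythroid progenitors 0 and 5, against 5.74% and 6.31%. Early erythroid cells had 0 higher and 4 lower, against 8.41% and 5.37%, globin-onset cells 0 and 4, against 2.92% and 2.04%, and globin-high erythroblasts 0 and 2, against 12.7% and 3.71%. Sparser gates had 1 of 73 higher and 7 lower (neutrophils, against 11.9% and 5.9%), 0 and 26 of 79 (eosinophils, against 13.8% and 12%), 0 and 8 of 77 (T, NK and innate lymphoid, against 10.5% and 10.2%) and 2 and 6 of 71 (B lineage, against 9.48% and 15%). The members' share of lower calls was near or under the background in the stem, megakaryocyte, megakaryocyte-erythroid, early erythroid, globin-high, T, NK and innate lymphoid and B lineage gates.

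Between cell types of the same library, the members' counts lay below the background along the erythroid path, while in basophils of the hypoxia library most members were lower. From the stem gate to CFU-E cells 4 of 83 members were at least 1.5-fold higher and 0 lower in each library, where 13.5% and 23.9% of genes were in the hypoxia library against 14.2% and 25.5% in the control one. From CFU-E cells to globin-high erythroblasts 0 were higher, against 11.3% and 11.5% of genes. Of 83 members 6 were lower in the hypoxia library, against 23% of genes, and 15 in the control one, against 28.8%. From the stem gate to granulocyte progenitors 1 was higher and 0 lower in each library, against 6.05% and 11.8% of genes in the hypoxia library, and 5.68% and 10.8% in the control one. Monocytic and dendritic progenitors had 0 higher and 2 lower in the hypoxia library, against 10.8% and 13.1%, and 0 and 0 in the control one, against 6.33% and 10.3%. Basophils had 0 higher and 70 of 82 lower in the hypoxia library, against 13.7% and 26.2%, and 0 and 20 in the control one, against 12.2% and 22.6%. Megakaryocytes had 2 higher and 4 lower in the hypoxia library, against 13.7% and 23.5%, and 1 and 7 in the control one, against 12.9% and 20.9%.

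Rpl30 was at least 1.5-fold lower in the hypoxia library in both the stem and the CFU-E gates. Rpl30, a large-subunit protein (chromosome 15, 34440505 to 34443640 on GRCm38), stood at 1268 CPM in the hypoxia library against 2115 CPM in the control library in the stem gate, a ratio of 0.599 (0.570 to 0.630). At the CFU-E stage it stood at 1341 and 2079 CPM, a ratio of 0.645 (0.639 to 0.651). Over the 10 gates with at least 50 cells in each library, leaving out the sparse neutrophil gate, its log2 ratio ran from -1.04 to -0.59. Rpl30 was thus lower in the hypoxia library in each of those gates, and its ratio was lowest in the basophil gate.

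Rplp2 was also low. Rplp2, an acidic protein of the ribosomal stalk that recruits elongation factors (chromosome 7, 141447370 to 141451585), stood at 2101 and 3105 CPM in the stem gate, a ratio of 0.677 (0.650 to 0.704). In CFU-E cells it stood at 2193 and 3170 CPM, a ratio of 0.692 (0.687 to 0.697). Its partners on the stalk were nearer 1. Rplp1, its dimer partner, had 0.911 (0.877 to 0.946) in the stem gate and 0.906 (0.901 to 0.911) at the CFU-E stage. Rplp0, which anchors both to the large subunit, had 0.925 (0.874 to 0.978) and 0.994 (0.985 to 1.003). The stalk genes therefore did not share 1 ratio, with Rplp2 apart from the other two.

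At the other end were Rpl17, Rps7, Rps26, Rpl24, Rpl26 and Rpsa. Rpl17, a protein at the exit of the peptide tunnel, stood at 4279 CPM in the hypoxia library against 3158 CPM in the control library in the stem gate, a ratio of 1.36 (1.31 to 1.40). At the CFU-E stage it stood at 3519 and 2708 CPM, a ratio of 1.30 (1.29 to 1.31). Over the 10 gates its log2 ratio ran from -0.00 to 0.48, lowest in the basophil gate. Rps7, a small-subunit protein, stood at 2310 and 1858 CPM in the stem gate and at 2093 and 1741 CPM at the CFU-E stage. Its log2 ratio ran from -0.08 to 0.38 over the gates.

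Rps26, which contacts mRNA upstream of the start codon in the small subunit (chromosome 10, 128624534 to 128626747), stood at 4250 and 3670 CPM in the stem gate. In CFU-E cells it stood at 4317 and 3522 CPM, a ratio of 1.23 (1.22 to 1.23). Rpsa, a small-subunit protein also known as the laminin receptor, differed by lineage. Its ratio was 1.28 (1.27 to 1.29) at the CFU-E stage, with 2603 and 2034 CPM, but 1.04 (0.998 to 1.08) in the stem gate and 0.805 (0.771 to 0.840) in the basophil gate. Rpl24 had a log2 ratio of 0.23 in the stem gate and 0.18 at the CFU-E stage, and Rpl26, a p53 mRNA-binding protein of the large subunit, had 0.34 and 0.10. None of the 6 genes reached 1.5-fold in either gate.

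Other members with named roles lay nearer 1. Rps4x, the X-linked small-subunit protein, stood at 3753 and 3629 CPM in the stem gate and at 3167 and 2899 CPM in CFU-E cells. Rpl3, a protein near the peptidyl transferase centre, had log2 ratios of -0.09 and -0.04, and Rpl22, which is dispensable for the ribosome but needed in T cell development, had -0.05 and -0.01. Rpl38 had 0.01 and -0.01, Rpl36a -0.12 and -0.08, and Rpl39 0.03 and 0.21. Rps19bp1, the binding protein and not a ribosomal protein, had 1181 UMIs in the hypoxia library against 2453 UMIs in the control library in CFU-E cells, a ratio of levels of 0.578 (0.539 to 0.620), but 30 and 29 UMIs in the stem gate.

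Once each gate's median was taken off, a member's ratio between the libraries varied little from gate to gate. Over 76 core members measured in all 10 gates, the standard deviation of a gene's log2 ratio across gates, relative to those medians, had a median of 0.06. The standard deviation of the gene means was 0.21. For the 256 other genes with at least 200 CPM in every gate and library, these values were 0.13 and 0.25. The sets were not matched for level, and the part of counting error in these values was not tested. Of the 76 core members, 41 had a ratio below 1 in all 10 gates and 0 above 1 in all 10, where 9.40% and 10.3% of 5960 genes did. Among the 330 genes with at least 200 CPM in every gate and library, members included, 24.2% were below 1 and 15.5% above 1 in all 10. The gates of a library share its preparation, so a gene-specific difference between library preparations and a response common to all cells cannot be told apart.

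**Figure D3:**
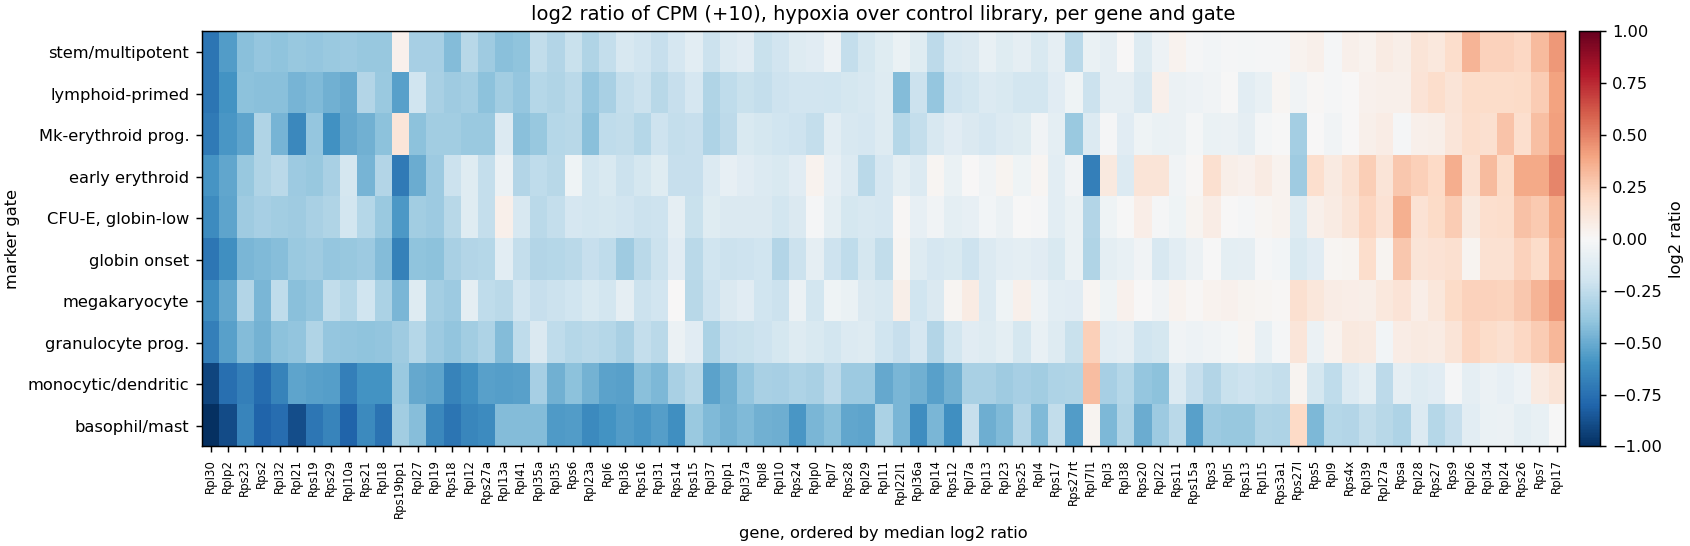
log2 ratio of CPM (10 added) between the hypoxia and control libraries for members measured in at least 9 gates (horizontal axis, ordered by median) in the 10 gates with at least 50 cells per library other than neutrophils (vertical axis), blue for lower and red for higher in the hypoxia library. Many columns keep their colour from gate to gate. Rpl30 at the left is blue in every row, and Rps7 and Rpl17 at the right are red in every row but the basophil one. The monocytic and basophil rows are bluer in most columns.

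Transcript length and base composition went only weakly with these ratios. Across the core members, Spearman's rho between the log2 ratio and the GC content of the transcript was -0.21 in the stem gate (76 genes) and -0.23 at the CFU-E stage (77 genes), and with length it was 0.11 and 0.20. The genes are not independent and share the same 2 libraries, so these are descriptions. The members lie on 19 chromosomes, with 14 on chromosome 7, among them Rplp2, Rps19 and Rps9, whose log2 ratios in CFU-E cells were -0.53, -0.33 and 0.25. Rps9 was chosen after its value was seen.

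Genes tied to Diamond-Blackfan anaemia were spread over the range rather than at an end of it. Of 18 listed genes, 18 were measured at the CFU-E stage, 11 had a ratio below 1 and 0 passed 1.5-fold, where 2.2% of all genes were higher and 1.29% lower, so a count of 0 is near the background. The median log2 ratio was -0.16, against 0.03 over all genes. Rps19, the most often mutated gene in the disease, stood at 1527 and 1916 CPM at the CFU-E stage, a ratio of 0.797 (0.790 to 0.804), and at 1878 and 2461 CPM in the stem gate, a ratio of 0.763 (0.731 to 0.797). Rpl5 and Rpl11 join the 5S RNA in the particle that restrains Mdm2. At the CFU-E stage Rpl5 stood at 2468 and 2465 CPM, a ratio of 1.001 (0.994 to 1.01), and Rpl11 at 1208 and 1355 CPM, a ratio of 0.891 (0.883 to 0.900). Rps26 and Rps7, named above for higher values, are on the same list.

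Cell types differed in which ribosomal proteins made up the share, and they did so alike in both libraries. To compare them, each gene was expressed as its percentage of all ribosomal protein UMIs in the gate, so a value says nothing of the total. From the stem gate to CFU-E cells, 9 core members rose and 5 fell by at least 1.2-fold in both libraries, of 77, and 68 changed in the same direction in both. The members named in the next 2 paragraphs other than Rps27l, Rplp1, Rpl39, Rpl10 and Rpl38 were chosen after their values were seen.

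Rps27l, a p53-inducible paralog of Rps27, rose from 0.126% to 0.238% of ribosomal protein UMIs in the hypoxia library, compared with a change from 0.113% to 0.248% in the control library. The ratios were 1.90 (1.71 to 2.11) and 2.20 (1.98 to 2.45). Rps2, a small-subunit protein at the mRNA entry, rose 1.60-fold (1.52 to 1.69) and 1.58-fold (1.52 to 1.65). Rpl41, the smallest ribosomal protein, rose 1.701-fold and 1.48-fold, and the stalk protein Rplp1 rose 1.41-fold and 1.46-fold. Falling were Rpl39, a large-subunit protein of the exit tunnel, at 0.757-fold and 0.690-fold, and Rps28 and Rps24, both small-subunit proteins on the anaemia list, at 0.770-fold and 0.760-fold and at 0.761-fold and 0.796-fold. Rpl39 thus went from 2.63% to 1.99% in the hypoxia library, compared with a change from 2.37% to 1.64% in the control library.

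The basophil and megakaryocyte gates were compared with the stem gate in the same way. In basophils Rpl10, the large-subunit protein that joins last in subunit maturation, rose 1.72-fold (1.63 to 1.82) over the stem gate in the hypoxia library against 1.68-fold (1.59 to 1.78) in the control library. Reads of Rpl10 are split with a pseudogene column, as given below, and the copies were not summed in the basophil gate. Rpl38, whose loss alters Hox mRNA translation in mouse embryos, rose 1.53-fold and 1.501-fold. In megakaryocytes Rpl6, a large-subunit protein, rose 1.39-fold in both libraries and Rps27l rose 2.31-fold and 2.18-fold. In neutrophils Rps9 made up 5.26% and 5.15% of ribosomal protein UMIs against 2.68% and 2.18% in the stem gate, and Rpl10a only 0.219% and 0.211% against 0.454% and 0.541%. Rpl10a had under 50 UMIs in the neutrophil gate over both libraries, so its percentages there rest on few molecules. Between any 2 gates of at least 50 cells, no share differed 3-fold in both libraries, and Rps2 came nearest, being 2.88-fold and 3.04-fold higher at globin onset than in neutrophils.

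**Figure D4:**
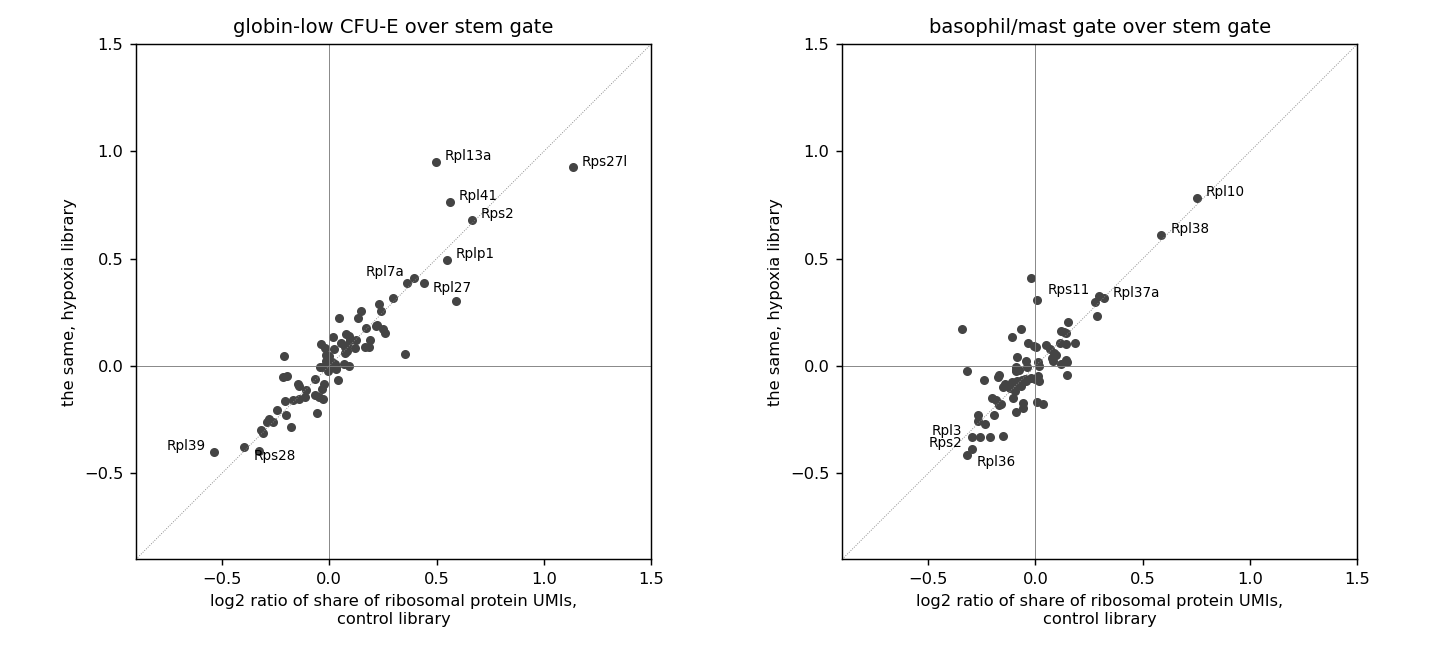
log2 ratio of each member's share of ribosomal protein UMIs in the CFU-E gate (left) and basophil gate (right) over the stem gate, control library on the horizontal and hypoxia library on the vertical axis, with the dotted line marking equal values. Most points lie near that line, with Rps27l, Rps2, Rpl41 and Rplp1 high in CFU-E cells and Rpl10 and Rpl38 high in basophils. Rpl36al, Rps19bp1, Rps10, Rpl10l, Rpl39l and Rpl3l are left out.

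The balance within paralog pairs showed cell-type patterns of its own. Rps27l made up 6.73% (6.07% to 7.44%) of Rps27l plus Rps27 UMIs in the stem gate of the hypoxia library and 7.04% (6.35% to 7.78%) in the control library. It reached 13.3% and 16.1% at the CFU-E stage and 15.9% and 15.5% in megakaryocytes, but only 1.98% (1.19% to 3.07%) and 2.67% (1.64% to 4.09%) in T, NK and innate lymphoid cells. In early erythroid, CFU-E and globin-onset cells the intervals of the libraries did not overlap, with the hypoxia library lower. The basophil intervals did not overlap either, with the hypoxia library higher, at 6.48% (5.99% to 6.99%) against 4.67% (4.09% to 5.30%). In CFU-E cells Rps27 itself stood at 2282 CPM in the hypoxia library against 1998 CPM in the control library, and Rps27l at 350 and 383 CPM.

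Rpl22l1, the paralog of Rpl22 that Rpl22 itself represses, varied less between gates in fold terms, though not in percentage points. It made up 34.9% (33.0% to 36.8%) and 35.1% (33.2% to 37.0%) in the stem gate and 32.9% and 32.5% at the CFU-E stage. The libraries differed at globin onset, at 35.4% (34.8% to 36.0%) in the hypoxia library against 32.6% (31.8% to 33.5%) in the control library. They also differed in globin-high erythroblasts, at 37.0% (35.4% to 38.7%) against 28.0% (24.2% to 32.1%), where the makeup of the gate also differed. In lymphoid-primed progenitors they differed the other way, at 29.5% (27.5% to 31.5%) and 37.1% (34.9% to 39.4%). Rpl10l, Rpl39l and Rpl3l, paralogs known from testis or muscle, had few UMIs, with 28, 71 and 15 UMIs in the hypoxia library against 16, 24 and 15 in the control library over all kept cells. Rps10, chosen after its values were seen, and Rpl36al were also low in CFU-E cells, at 6.6 and 5.6 CPM and at 19.9 and 21.01 CPM.

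**Figure D5:**
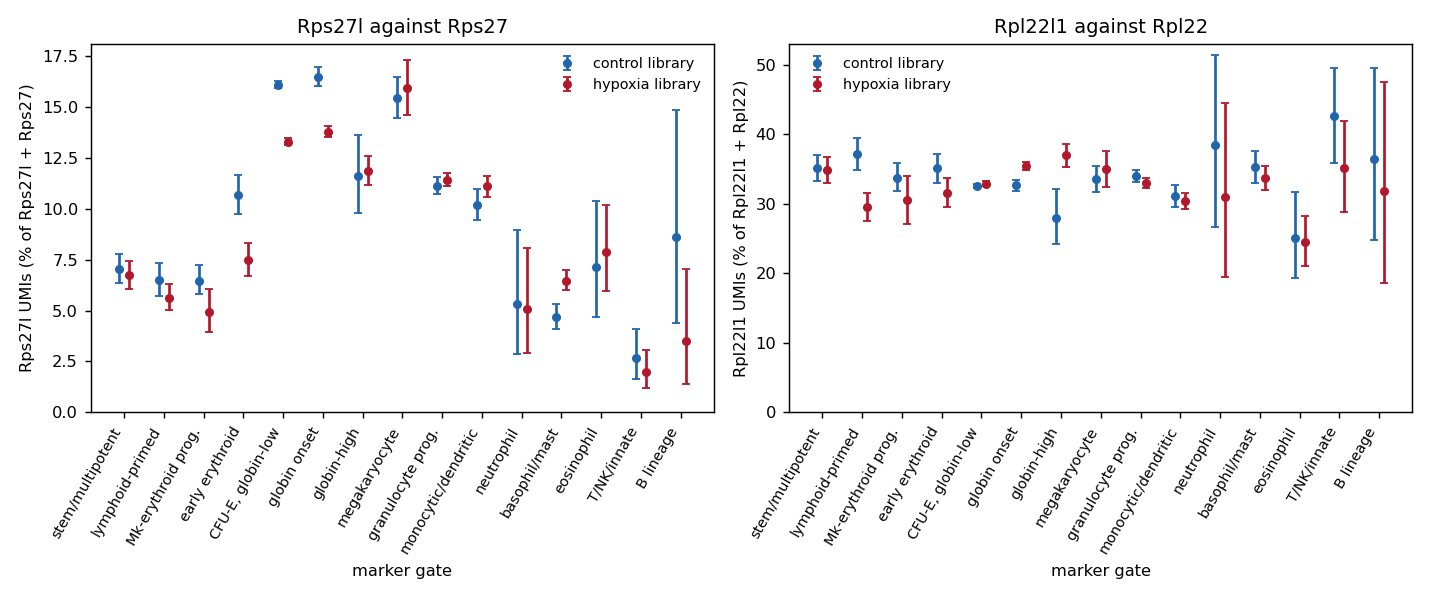
Rps27l as a percentage of Rps27l plus Rps27 UMIs (left) and Rpl22l1 as a percentage of Rpl22l1 plus Rpl22 UMIs (right) in each gate (horizontal axis), with 95% exact binomial intervals for counting error in the hypoxia (red) and control (blue) libraries. The Rps27l percentage is highest in the CFU-E, globin-onset and megakaryocyte gates and lowest in the T, NK and innate lymphoid gate, and the Rpl22l1 percentage runs from 24.5% in the hypoxia eosinophil gate to 42.6% in the control T, NK and innate lymphoid gate.

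Several members have near-identical copies elsewhere in the genome, and reads can be split between them. Pseudogene columns with -ps in their symbol together held 1.62% of the UMIs of both kinds in the hypoxia library against 1.49% in the control library. Any pseudogene under another symbol was not counted. Rpl13a had 23060 UMIs against 30009 in Rpl13a-ps1 in the hypoxia library as deposited, and Rpl10 had 142936 against 114496 in Rpl10-ps3, so the levels of these 2 genes are uncertain. Summing the copies changed the log2 ratio of Rpl13a in the stem gate from -0.42 to 0.01 and that of Rpl10 from -0.19 to -0.15. Rps27rt, a retrotransposed copy of Rps27, held 8.25% and 9.72% of the UMIs of the pair at the CFU-E stage.

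Ribosomal proteins with other names, and other TOP mRNAs, gave median ratios nearer 1 than the members in the stem and CFU-E gates. Fau, which carries the small-subunit protein eS30, stood at 1099 and 1166 CPM at the CFU-E stage, and Rack1, a scaffold on the small subunit, at 1805 and 1818 CPM. Of 15 other TOP mRNAs, 8 had a ratio below 1 at the CFU-E stage, with a median log2 ratio of -0.03, and 15 of 15 were below 1 in the monocytic and dendritic gate, with a median of -0.31. Eef1a1, the elongation factor that delivers tRNAs, stood at 8211 CPM in the hypoxia library against 7238 CPM in the control library at the CFU-E stage. Pabpc1, the poly(A)-binding protein, had a log2 ratio of 0.30 and Eif3f, an initiation factor subunit, of -0.38 there.

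The 9 regulators of TOP translation had a median log2 ratio of 0.14 at the CFU-E stage, against 0.03 over all genes. Of these 9, 0 passed 1.5-fold in either direction, near the background of 2.2% higher and 1.29% lower. Eif4ebp1, an inhibitor of cap-dependent initiation that mTOR switches off, stood at 95.1 CPM in the hypoxia library against 61.9 CPM in the control library, a log2 ratio of 0.55, and had 0.26 in the stem gate. Larp1 stood at 365 and 457 CPM at the CFU-E stage, a log2 ratio of -0.32, and had -0.55 at globin onset and -0.13 in the stem gate. Of the ribosome rescue and recycling genes, 6 were measured at the CFU-E stage and 0 passed 1.5-fold, which is near the same background. Ltn1, a ligase that marks stalled chains, had a log2 ratio of 0.44 and Nemf, its cofactor, of -0.30. The 2 snoRNA host transcripts with a column, Snhg6 and Snhg12, had 0.29 and 0.21 there, against -0.29 and 0.15 in the stem gate.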

How the data were processed

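Cells of 2 libraries were analysed. The authors deposited raw UMI counts per cell and gene, after recursive substitution error correction and with no normalization, per the file headers, which name version 1.7.1 of the BD WTA Rhapsody Analysis Pipeline and, as reference, GENCODE vM19 on GRCm38. The submitters' processing notes also name Bowtie2. Cells with under 20% mitochondrial UMIs, at least 500 UMIs and at least 200 genes were kept, and doublets called by Scrublet in scanpy 1.11.5 (116 hypoxia, 36 control) were left out. Gates used UMIs per 10000, with thresholds placed after the markers' values were seen, and cells taken by several gates or none were left out. Counts were summed per gate and library. Ratios carry exact conditional intervals and shares exact Clopper-Pearson intervals. Members had log2 ratios of CPM with 10 added, for genes that reached 50 UMIs in the gate when both libraries were added. Named members were the 4 highest and 4 lowest in the stem and CFU-E gates, those departing 1.5-fold from the median member in at least 3 gates or differing 3-fold between gates, and a fixed list of stalk proteins, paralogs and disease genes. Members, lists and alternatives were chosen with earlier results of these data known. Levels of different genes were not compared. The ratio and interval code was tested on simulated counts. TMM scaling used edgeR 4.0.16. Results for some members are not reported here.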

Additional observations from a re-analysis of the deposited data

How the results depend on the processing

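No paired analysis was possible because each group is 1 library. The share ratio of hypoxia over control stayed below 1 in all alternatives run. Without mitochondrially encoded and globin genes it was 0.912 in the whole library, 0.929 in the stem gate and 0.957 at the CFU-E stage. As a mean over cells it was 0.889 in the whole library and 0.951 at the CFU-E stage, thinned to 5000 UMIs 0.892 and 0.951, and with the stricter cell filter 0.907 in the whole library. Gate thresholds halved gave 0.925 in the stem gate, and doubled gave 0.936 there and 0.947 at the CFU-E stage. CFU-E cells of 20000 to 40000 UMIs, an alternative chosen after seeing the data, gave 0.939.

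The share of globin-high over CFU-E cells stayed below 1 in both libraries. In the hypoxia and control libraries it was 0.843 and 0.834 without mitochondrially encoded and globin genes, 0.776 and 0.542 as a mean over cells, 0.875 and 0.925 with thresholds halved, 0.709 and 0.471 with them doubled, 0.829 and 0.824 with the stricter filter, 0.803 and 0.622 thinned, and 0.847 and 0.941 without the most globin-rich cells (chosen after seeing the data).

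The 2 members at least 1.5-fold lower at the CFU-E stage became 4 under TMM and 4 under median-of-ratios scaling, 0 as shares within ribosomal protein UMIs and 1 with 50 CPM added. The median member there, -0.10 as reported, was -0.18 under both TMM and median-of-ratios scaling, with 9 members changing sign under each. Scaling within ribosomal protein UMIs moved it to -0.03 there and from -0.13 to -0.01 in the stem gate, and 12 and 18 members changed sign. The cause was not tested. No called member reversed. Depth limits members under 50 UMIs, gates of few cells and the globin-high control cells.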
